A study of Mus musculus with 6 samples.

Results

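Total RNA of a mouse cardiac allograft from BH4-treated mice was set against that of a cardiac allograft from NIL-treated mice, as the log2 difference BH4 minus NIL over every probe set that is not a control. These are 2 of the 6 arrays of the study, 1 array for each of 6 groups. BH4 is tetrahydrobiopterin, given at 50 mg/kg every 8 h, and NIL is N-imino ethyl-L-lysine, given at 5 mg/kg every 8 h. The doses differ, so the signals below are given side by side for 2 compounds at different doses. The other arrays were an untreated allograft, an untreated syngraft (a graft between genetically matched animals), an allograft with ABH4 (4-amino tetrahydrobiopterin, 50 mg/kg every 8 h) and an allograft with CsA (cyclosporin A, 15 mg/kg every 24 h). The labels do not give the strains, the age of the mice, the day of graft removal or whether RNA of several grafts was pooled. With 1 array per group there is no spread between grafts, no test was possible and no p-value is given. A value called higher or lower describes these arrays, not the treatments.

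Nitric oxide is made from arginine by the nitric oxide synthases, which need tetrahydrobiopterin as a cofactor. In rejecting grafts the inducible synthase, encoded by Nos2, is made by infiltrating macrophages and other cells exposed to interferon-gamma. NIL competes with arginine and prefers the inducible synthase to the other isoforms, whereas supplied BH4 can sustain synthase activity. Rejection of a heart allograft is led by recipient T cells, which kill donor cells through granzymes and perforin and secrete interferon-gamma. Interferon-gamma in turn raises antigen presentation in the graft.

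The signal is the brightness of a probe set after each array was brought to a common median, and signals under a floor of 34.8 were set to that floor. A fold against a value at the floor is a lower bound and is written as "at least". Across 22626 probe sets, 407 (1.8%) were at least 2-fold higher with BH4 and 249 (1.1%) at least 2-fold lower. By gene, taking the brightest probe set of each, 218 of 12393 (1.76%) were at least 2-fold higher with BH4 and 155 (1.25%) at least 2-fold lower. Which direction held more calls depended on scaling and floor. Without rescaling 303 probe sets and 168 genes were higher and 421 and 265 lower, and when the floor was lowered to the 10th percentile 1350 and 636 were higher and 1494 and 790 lower. The array from the BH4 graft carried a group of 17 salivary secretion genes whose signal exceeded that of each other array by 2-fold or more. Without them, 387 probe sets (1.71%) and 201 genes (1.62%) were at least 2-fold higher with BH4, and the counts of lower ones were again 249 and 155. At 4-fold, 36 genes (0.29%) were higher and 5 (0.0403%) lower with the salivary genes, and 24 (0.194%) higher and 5 (0.0404%) lower without them. Most genes were close, and 87.8% lay within 1.5-fold of each other on the 2 arrays. The correlation of the arrays across genes, which are not independent, was 0.97, the 6th highest of the 15 pairs of arrays.

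The 2 sets of genes beyond 2-fold differed in brightness. Genes higher with BH4 had a median signal of 176 on the BH4 array, and 131 of the 218 exceeded 4 times the floor. Genes higher with NIL had a median signal of 97.3 on the NIL array, and only 33 of the 155 exceeded 4 times the floor. Of the genes with a further probe set above the floor, all further probe sets had the same sign for 61 of 77 genes higher with BH4 and for 18 of 28 genes higher with NIL. The untreated allograft lay nearer the NIL value for 154 of the 218 genes higher with BH4 (137 of 201 without the salivary genes). For 113 of the 155 genes higher with NIL it lay nearer the BH4 value. In both sets the untreated signal was thus mostly nearer the lower array, on which 58 of the 218 and 60 of the 155 genes were at the floor. The genes were chosen by the BH4 and NIL signals, so these counts are a description. With a floor at the 10th percentile the untreated signal lay nearer NIL for 54.4% of genes higher with BH4. Heart identity was present on both arrays: the signal of Nppa, atrial natriuretic peptide, was 8370 with BH4 and 8001 with NIL, and that of Myh6, the alpha myosin heavy chain, was 3236 with BH4 and 3363 with NIL.

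**Figure D1:**
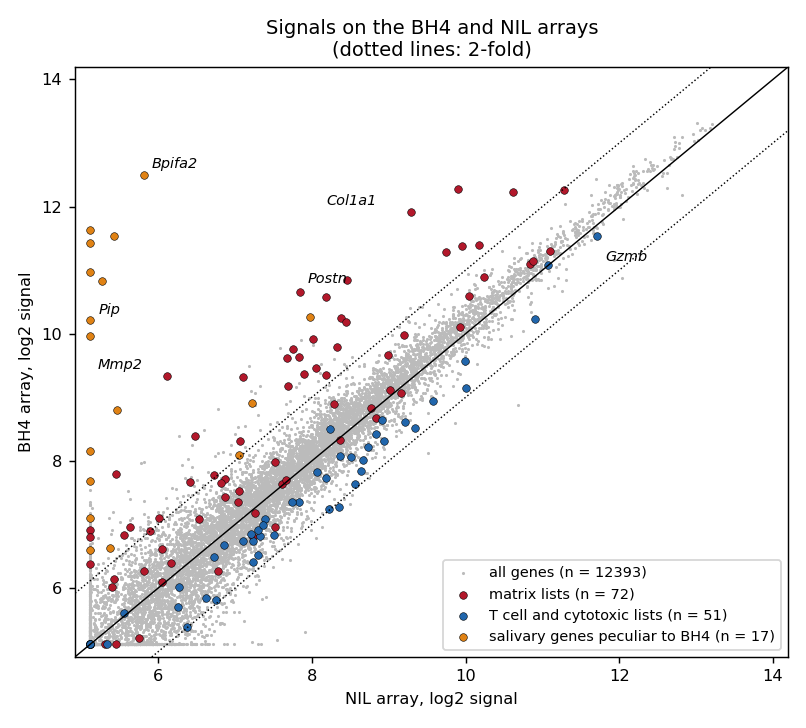
Log2 signal of each of 12393 genes on the NIL array (horizontal axis) and the BH4 array (vertical axis), with the line of equality and dotted lines at 2-fold. Matrix genes (red) lie mostly above the line, T cell and cytotoxic genes (blue) mostly below it, and the 17 salivary genes peculiar to the BH4 array (orange) at the left and upper edge.

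Extracellular matrix genes were higher with BH4, and the collagen and matricellular lists had the highest medians of the 43 gene lists compared. Of the 72 genes in 3 matrix lists, 43 were at least 1.5-fold higher with BH4 and 0 lower, where over all genes 751 (6.06%) were higher and 766 (6.18%) lower. Of these, 33 were at least 2-fold higher. The median difference was 0.84 on the log2 scale, against 0.00 over all genes. At the main scaling and floor, the shares of 6.06% and 6.18% stand beside every later list count of BH4 against NIL at 1.5-fold. In bulk tissue a higher signal from more cells of a type and one from more RNA per cell cannot be told apart.

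Among collagens 11 of 18 were higher, with a median difference of 1.29. Col1a1, a chain of type I collagen and the main fibrillar protein of scar, had signals of 5537 in the syngraft, 680 in the untreated allograft, 4708 with CsA, 1513 with ABH4, 626 with NIL and 3877 with BH4. The NIL graft was thus level with the untreated allograft, and the BH4 graft was 6.19-fold above NIL and below only the CsA graft and the syngraft. Its second probe set differed by 2.28 on the log2 scale, against 2.63 for the brighter one. Col1a2, the partner chain, was 5.18-fold higher (958 with NIL, 4960 with BH4). Col5a2, a chain of the type V collagen that nucleates fibrils, was 5.28-fold higher, from 290 to 1531. Col6a1 and Col6a3, chains of the beaded type VI collagen, were 3.83-fold and 3.65-fold higher. Not all collagens shared this. Col4a1, a chain of basement membrane collagen, had signals of 1836 with NIL and 2181 with BH4, and Col4a5 had 329 and 322. Col18a1, another basement membrane collagen, was 183 with NIL and 125 with BH4, with a probe set of opposite sign.

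The start of the Col1a2 gene is shown because the 2 type I collagen chains stood apart together and RefSeq (GRCm38.p6) lists this promoter and none for Col1a1 in the table used. The 250 bases before the start lie at chr6:4505368-4505617 on the + strand, and capitals mark CCAAT, searched on either strand together with TATAAA, which does not occur in these bases.
Col1a2: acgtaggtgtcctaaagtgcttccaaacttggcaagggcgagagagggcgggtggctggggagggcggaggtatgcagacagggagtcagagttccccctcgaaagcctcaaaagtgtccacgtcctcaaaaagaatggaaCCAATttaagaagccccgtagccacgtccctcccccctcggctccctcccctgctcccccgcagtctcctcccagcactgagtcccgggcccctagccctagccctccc
Of the 33 matrix genes at least 2-fold higher only 21 (63.6%) had a promoter in the table, so no share of motifs was computed for the group.

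Matricellular proteins and proteoglycans, which organise fibrils and bind growth factors, showed the same direction in 20 of 28 genes, with a median of 1.16 and 0 genes lower. Postn, periostin, a secreted product of activated fibroblasts, had signals of 3142 in the syngraft, 219 in the untreated allograft, 3019 with CsA, 506 with ABH4, 231 with NIL and 1612 with BH4. The difference between BH4 and NIL was 6.97-fold, and the NIL and untreated signals were alike. Mgp, matrix Gla protein, an inhibitor of calcification, was 5.24-fold higher (351 with NIL, 1841 with BH4). Lum, lumican, was 4.62-fold higher and Mfap5, a microfibril protein, 3.74-fold higher. Fn1, fibronectin, was 2.89-fold higher, from 861 to 2487. Eln, elastin, had signals of 150 with NIL and 112 with BH4, and Ccn5 had 110 and 77, both within 1.5-fold in the other direction.

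Of 26 matrix proteases, inhibitors and crosslinking enzymes, 12 were higher, with a median of 0.56, and 0 lower. Mmp2, the gelatinase made by fibroblasts, had the largest difference outside the salivary genes. Its signals were 494 in the syngraft, 46.6 in the untreated allograft, 694 with CsA, 189 with ABH4, 69.3 with NIL and 649 with BH4. That is 9.37-fold between BH4 and NIL, with the BH4 graft above the syngraft, and the other probe set of Mmp2 differed by 1.79 on the log2 scale. Mmp23 was 5.05-fold higher, from 43.9 to 222. Pcolce, which enhances cleavage of the collagen propeptide, was 4.03-fold higher, Loxl1, a crosslinking enzyme of elastic fibres, 2.80-fold and Lox, lysyl oxidase, 2.23-fold. Timp1, an inhibitor of the metalloproteinases, had signals of 1887 with NIL and 2264 with BH4.

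The other arrays gave these matrix genes a common order. Against the untreated allograft the median over the 72 genes was 1.71 in the syngraft, 1.61 with CsA, 0.97 with BH4, 0.39 with ABH4 and 0.06 with NIL. Of the 33 genes at least 2-fold higher with BH4 than with NIL, the CsA signal was above that of BH4 in 33 and the syngraft signal in 30. The ABH4 signal lay between NIL and BH4 in 28, and the untreated signal was within 1.5-fold of NIL in 32. The separation of BH4 from NIL in these genes therefore lay on the BH4 side of the untreated allograft.

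**Figure D2:**
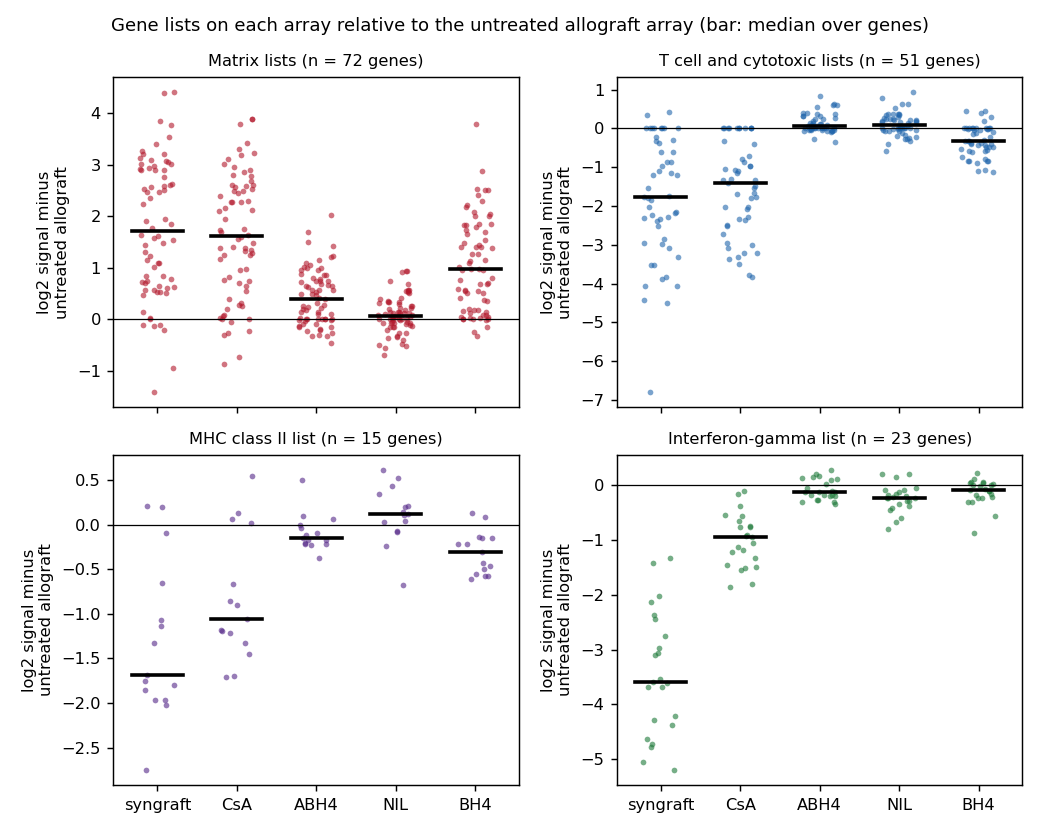
Log2 signal minus that of the untreated allograft array for each gene (points) of the matrix, T cell and cytotoxic, MHC class II and interferon-gamma lists on the other 5 arrays, with the median as a bar. The matrix median is 0.97 with BH4 and 0.06 with NIL, and the T cell and cytotoxic median is -0.32 with BH4 and 0.09 with NIL.

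Fibroblast genes that encode no matrix protein were measured to see whether markers of these cells differed with the matrix. Of 16, 3 were higher with BH4 and 2 lower, with a median of 0.35. Pdgfra, the platelet-derived growth factor receptor that marks cardiac fibroblasts, was at the floor on the untreated and NIL arrays, at 310 in the syngraft, 244 with CsA, 95.1 with ABH4 and 186 with BH4. By this probe set it was at least 5.34-fold higher with BH4 than with NIL, and its other probe set differed by at least 0.9 on the log2 scale. Gas1, a growth arrest gene of quiescent fibroblasts, was 2.69-fold higher (49.7 with NIL, 134 with BH4), and Tcf21, a fibroblast lineage transcription factor, at least 2.56-fold higher (at the floor with NIL, 89 with BH4). Broader mesenchymal genes differed less: Vim, vimentin, was 4691 with NIL and 5894 with BH4, with another probe set of opposite sign, and Pdgfrb was 79.8 and 102. Thy1, carried by fibroblasts and T cells alike, was 1.55-fold lower with BH4, and Scara5, with a probe set of opposite sign, was at 69.5 with NIL and at the floor with BH4. The log2 signals of the 16 genes summed to 107.42 with NIL and 113.87 with BH4, and 6 and 4 of them were at the floor. The part of fibroblast number in the matrix difference was not tested.

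Secreted regulators that fibroblasts release went with the matrix genes, 8 of 15 Wnt antagonists and genes of the insulin-like growth factor axis being higher and 0 lower, with a median of 0.66. With a floor at the 50th percentile 5 of 15 were higher and the median was 0.22. Igfbp4, a binding protein that holds IGF from its receptor, was 4.58-fold higher, with signals of 1656 in the syngraft, 190 in the untreated allograft, 1027 with CsA, 353 with ABH4, 192 with NIL and 879 with BH4. Here too the NIL and untreated arrays were alike. Sfrp2 and Sfrp1, soluble decoys of Wnt ligands, were 4.54-fold and 4.47-fold higher, and the 4 probe sets of Sfrp1 had the same sign. By its brightest probe set Igf1 itself was 2.76-fold higher (41.8 with NIL, 115 with BH4), and remained below the syngraft signal of 484. Its other probe sets differed by 0.22 and 0.51 on the log2 scale. Of 19 TGF-beta and BMP genes 5 were higher and 0 lower, with a median of 0.25, and 3 were higher without rescaling. The leading member was Ltbp2, a microfibril protein related to the proteins that store latent TGF-beta, at 3.49-fold (87.2 with NIL, 304 with BH4). The ligands Tgfb1 (513 with NIL, 607 with BH4) and Tgfb3 (130 and 152) were within 1.5-fold. Among 18 smooth muscle and pericyte genes 3 were higher, Myl9, a regulatory myosin light chain, by 3.07-fold and Rgs5, a pericyte marker, by 2.34-fold, and the list median was 0.06.

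Of the 15 genes of the nitric oxide synthase and guanylate cyclase list, 0 were at least 1.5-fold higher with BH4 and 4 (26.7%) lower, against 6.18% lower over all genes, with a median of -0.19. All 4 were dim, and when the floor was raised to the 50th percentile 0 of 15 were lower. Nos2 had signals at the floor in the syngraft and with CsA, 73.2 in the untreated allograft, 61.3 with ABH4, 88.0 with NIL and 54.7 with BH4. The 4 allografts without CsA thus all carried Nos2 above the floor, and the signal was 1.61-fold higher with NIL than with BH4, between dim values. Nos3, the endothelial synthase, was 218 with NIL and 190 with BH4. Nos1, the neuronal synthase, was at the floor with BH4 and at 57.9 with NIL, at least 1.67-fold lower. The other 2 of the 4 were Pde3a, 1.78-fold lower with a probe set of opposite sign, and Pde1a, at least 1.52-fold lower, phosphodiesterases that break down cyclic nucleotides. The guanylate cyclase subunits that sense nitric oxide, Gucy1a1 (63.7 with NIL, 49.6 with BH4) and Gucy1b1 (90.6 and 88.4), were within 1.5-fold.

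None of the 8 measured genes of tetrahydrobiopterin synthesis, recycling and use differed by 1.5-fold, and their median was -0.01. Gch1, the rate-limiting enzyme of BH4 synthesis, had signals of 99.2 in the syngraft, 279 in the untreated allograft, 185 with CsA, 263 with ABH4, 249 with NIL and 256 with BH4. All allografts were above the syngraft, and the BH4 and NIL signals differed by 0.04 on the log2 scale, a sign that turned under other scalings. Pts, the next enzyme, was 117 with NIL and 101 with BH4, Spr, sepiapterin reductase, 149 and 142, and Qdpr, which recycles the oxidised cofactor, 522 and 603. Of 16 genes of arginine and amino acid use 1 was higher and 1 lower. Asl, argininosuccinate lyase, which regenerates arginine, was 1.78-fold higher with BH4 (64.2 with NIL, 114 with BH4). Arg2, the mitochondrial arginase, was 1.68-fold lower (76.2 with NIL, 45.4 with BH4). Arg1, the cytosolic arginase of activated macrophages, did not exceed the floor in the syngraft, and stood at 1094 with NIL and at 1045 with BH4. The transporter Slc7a2 was 103 with NIL and 69.4 with BH4, with a probe set of opposite sign. Gchfr, Ass1 and Pde5a were not analysed here.

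Genes of T cells and cytotoxic lymphocytes were lower with BH4 than with NIL. Of 51 T cell and cytotoxic genes pooled, 17 were at least 1.5-fold lower with BH4 than with NIL and 0 higher, with a median of -0.41. Over all genes 6.18% were lower and 6.06% higher. Of the 26 T cell genes 9 were lower. Cd3g, a chain of the T cell receptor complex, had signals at the floor in the syngraft, of 512 in the untreated allograft, 63.2 with CsA, 563 with ABH4, 591 with NIL and 390 with BH4. The BH4 graft stayed far above the CsA graft and the syngraft, and the NIL signal was 1.51-fold above BH4. Cd3e was 1.57-fold lower (406 with NIL, 259 with BH4), Cd247, the zeta chain, 1.77-fold, Ltb, lymphotoxin beta, 1.89-fold and Il2ra, the high-affinity interleukin 2 receptor, 1.92-fold with a probe set of opposite sign. Cd8a, the coreceptor of cytotoxic T cells, was within 1.5-fold, at 269 with NIL and 227 with BH4, and Cd4 was at the floor on every array.

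In the cytotoxic and NK list 8 of 25 genes were lower, with a median of -0.43. Ctsw, cathepsin W of cytotoxic cells, was at the floor with CsA and in the syngraft, at 269 in the untreated allograft, 259 with ABH4, 326 with NIL and 155 with BH4. The BH4 signal was the lowest of the 4 allografts without CsA, 2.10-fold below NIL. Gzmc, a granzyme, was 1.99-fold lower (82.9 with NIL, 41.7 with BH4), Klrd1, the CD94 receptor chain, 1.96-fold (299 and 152) and Nkg7, a granule membrane protein, 1.82-fold (1026 and 565). The abundant effector genes lay closer together. Gzmb, granzyme B, was 3358 with NIL and 2973 with BH4, and Ifng, interferon-gamma, 484 with NIL and 400 with BH4. Against the untreated allograft the median of the pooled 51 genes was -0.32 with BH4, 0.09 with NIL and -1.40 with CsA. The chemokine Ccl5, a member of the cytotoxic and NK list, was 1.59-fold lower (1907 with NIL, 1197 with BH4). Slamf6, a receptor of T and NK cells outside these lists, was 2.89-fold lower (164 with NIL, 56.9 with BH4).

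The MHC class II list held class II genes, which present peptides to helper T cells, with the invariant chain, regulators and costimulatory genes. Of its 15 genes 6 were lower and 0 higher, with a median of -0.38. The share lower over all genes was 6.18%. H2-Eb1, a class II beta chain, had signals of 1051 in the syngraft, 3384 in the untreated allograft, 1486 with CsA, 2928 with ABH4, 3903 with NIL and 2278 with BH4. NIL was highest of all arrays and BH4 lowest of the allografts without CsA, at 1.71-fold. H2-Ab1 was 1.61-fold lower and H2-Aa 1.55-fold, whereas Cd74, the invariant chain that guides them, was 6268 with NIL and 5016 with BH4. H2-Oa, a chain of H2-O, which regulates peptide loading of class II molecules, was 2.03-fold lower (128 with NIL, 63.2 with BH4), and Cd80, a costimulatory ligand, 1.78-fold lower. Ciita, the class II transactivator, was 140 with NIL and 111 with BH4. In contrast none of 14 MHC class I and peptide loading genes differed by 1.5-fold, with a median of 0.08. Among dendritic and mast cell genes 5 of 16 were lower and 1 higher, with a median of -0.11. With a floor at the 50th percentile 1 was lower and 0 higher. Xcr1, a receptor of cross-presenting dendritic cells, was 2.39-fold lower (104 with NIL, 43.3 with BH4), whereas Flt3 was 1.94-fold higher (57.1 with NIL, 111 with BH4).

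Interferon-gamma induced genes lay close together on the 2 arrays. Of 23, 1 was higher and 0 lower, with a median of 0.13 that was -0.07 after quantile normalization. Cxcl9, a T cell attracting chemokine, was 3712 with NIL and 3928 with BH4, a difference whose sign turned under other scalings. The exception was Socs1, which feeds back on interferon signalling, 1.62-fold higher (252 with NIL, 409 with BH4). Without rescaling, and also after quantile normalization, 0 of the 23 were at least 1.5-fold higher and 1 was lower. Type I interferon genes were higher in 5 of 23 cases (21.7%, against 6.06% over all genes) and lower in 0, with a median of 0.25. After quantile normalization 2 of 23 were higher (8.7%, against 5.33% over all genes). Ifit1, an antiviral RNA-binding protein, had signals of 171 in the syngraft, 1334 in the untreated allograft, 754 with CsA, 957 with ABH4, 616 with NIL and 1164 with BH4. NIL was the lowest allograft, and BH4 stood 1.89-fold above it. Usp18, which removes the ISG15 modifier, was 1.71-fold higher and Bst2, tetherin, 1.62-fold. Against the untreated allograft 12 of the 23 genes were at least 1.5-fold lower with NIL and 3 with BH4. The list medians were -0.6 with NIL and -0.25 with BH4, and those of the housekeeping list -0.11 and -0.03. No share over all genes is given for these counts. Other lists also lay lower with NIL, such as heat shock genes at -0.4, against -0.21 with BH4.

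The largest difference in the other direction was that of an immunoglobulin gene. In the B cell and plasma cell list 4 of 15 genes (26.7%, against 6.18% over all genes) were lower with BH4 and 0 higher, with a median of -0.36. Igk, the kappa light chain, had signals at the floor in the syngraft, of 48.2 in the untreated allograft, 134 with CsA, 263 with ABH4, 241 with NIL and 39.7 with BH4, which is 6.06-fold. Jchain, which joins IgA and IgM units, had 225, 534, 1313, 1840, 1649 and 473 on the same arrays in that order, 3.49-fold higher with NIL. Igha, the IgA heavy chain, was 2.22-fold higher with NIL (4199 with NIL, 1890 with BH4). BH4 was thus close to the untreated allograft, and NIL was grouped with ABH4 and CsA. Of 22 genes with immunoglobulin symbols, a set chosen after their values were seen, 9 were lower with BH4 by at least 1.5-fold, 0 were higher and 9 were at the floor on both arrays. Probe sets of related V segments can share transcripts, so these genes are not separate measurements. Ighm, the IgM heavy chain, was within 1.5-fold, at 262 with NIL and 204 with BH4.

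**Figure D3:**
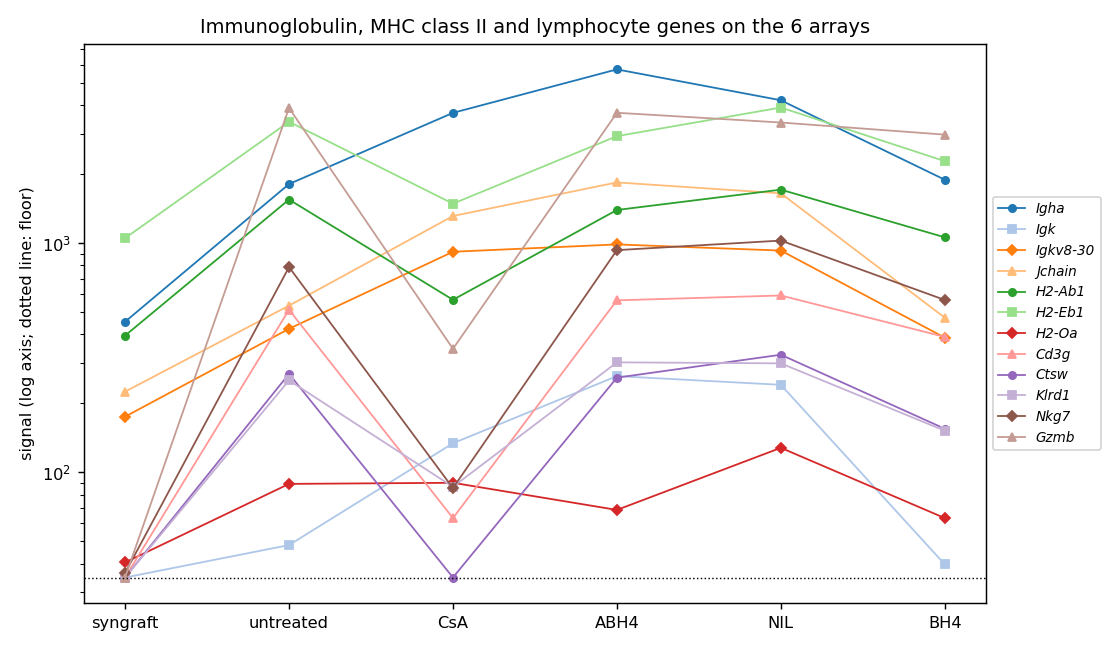
Signal (log axis, dotted line at the floor) of immunoglobulin, MHC class II and lymphocyte genes on the 6 arrays, with lines only joining the values of a gene. Immunoglobulin genes are high with CsA, ABH4 and NIL and lower with BH4, while lymphocyte genes are low in the syngraft and with CsA and lie lower with BH4 than with NIL.

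Macrophage genes as a list differed little in median, 0.15 (-0.02 after quantile normalization). Of 33 genes 6 (18.2%, against 6.06% over all genes) were higher and 0 lower. Cd68, a pan-macrophage marker, was 933 with NIL and 1046 with BH4, and Csf1r 2580 and 2389. The 6 higher members were Gpnmb, Lyve1, Marco, Mrc1, Folr2 and Trem2, the last with a probe set of opposite sign. Gpnmb, a glycoprotein of lysosome-rich macrophages, had signals of 148 in the syngraft, 43.3 in the untreated allograft, 332 with CsA, 108 with ABH4, 153 with NIL and 535 with BH4. BH4 was highest of the 6 arrays, 3.50-fold above NIL. Lyve1, of resident macrophages and lymphatic endothelium, was 3.37-fold higher (41 with NIL, 138 with BH4), Marco, a scavenger receptor, at least 2.88-fold, and Mrc1, the mannose receptor, 1.90-fold. Among lysosomal proteases Ctsk, cathepsin K, which degrades collagen, was 3.69-fold higher (97.1 with NIL, 359 with BH4) and Ctsl 1.87-fold.

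Of 23 neutrophil and acute-phase genes 8 (34.8%, against 6.06% over all genes) were higher and 3 (13.0%, against 6.18%) lower, and those farthest apart encode secreted proteins. The count includes Ltf, which is among the salivary genes peculiar to the BH4 array, without which 7 of 22 were higher and 3 lower. Serpina3n, a protease inhibitor, had signals of 1000 in the syngraft, 232 in the untreated allograft, 677 with CsA, 536 with ABH4, 145 with NIL and 718 with BH4. NIL was the lowest array and the difference 4.94-fold. Chil3, a chitinase-like protein of macrophages and neutrophils, was 4.11-fold higher (110 with NIL, 451 with BH4), Lcn2, lipocalin 2, 4.10-fold (233 and 956), and Hp, haptoglobin, 2.63-fold. The neutrophil calcium-binding genes S100a8 (340 with NIL, 408 with BH4) and S100a9 (204 and 177) were within 1.5-fold. Csf3r, the receptor for granulocyte colony-stimulating factor, was 1.74-fold lower. Il6, the cytokine that drives the acute-phase response, went the other way, 2.10-fold lower with BH4 (368 with NIL, 176 with BH4). Chemokines were divided, 4 of 30 being higher and 4 lower.

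Of 27 antioxidant genes 7 (25.9%, against 6.06% over all genes) were higher with BH4 and 1 (3.7%, against 6.18%) lower, with a median of 0.35. Without rescaling 5 (18.5%, against 4.04% over all genes) were higher, with a median of 0.21. After quantile normalization 5 (18.5%, against 5.33%) were higher, with a median of 0.18. Srxn1, sulfiredoxin, a target of the stress factor Nrf2, had signals of 265 in the syngraft, 1354 in the untreated allograft, 599 with CsA, 1022 with ABH4, 600 with NIL and 1228 with BH4. The BH4 and untreated signals were close and NIL was 2.05-fold below BH4. Gsta4, a glutathione transferase, was 2.20-fold higher (619 with NIL, 1363 with BH4), Gclm, of glutathione synthesis, 1.77-fold, and Gpx3, a secreted glutathione peroxidase, 2.42-fold. Slc7a11, the cystine importer, was the exception at 2.49-fold lower (95 with NIL, 38.1 with BH4). Hmox1, heme oxygenase 1, was 1556 with NIL and 1624 with BH4, a sign that turned under other scalings. Xdh, xanthine dehydrogenase, was 1.53-fold higher. Without rescaling or after quantile normalization 0 of the 8 genes of its list were at least 1.5-fold higher. Of the 27 genes, 7 were at least 1.5-fold lower with NIL than in the untreated allograft and 1 was so with BH4. The list medians against that array were -0.26 with NIL and 0.0 with BH4, and no share over all genes is given for these counts.

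The listed genes of the heart muscle differed little. Of 28 contractile genes 1 was higher, Ckm, muscle creatine kinase, by 1.80-fold (410 with NIL, 739 with BH4), and 1 lower, Myl4, the atrial light chain, by 1.96-fold between dim values and with a probe set of opposite sign. None of 29 respiratory chain and citrate cycle genes differed by 1.5-fold, and their median was 0.26, against 0.13 when the deposited values were not rescaled and 0.09 with quantile-normalized values. Bright genes as a whole leaned the same way, the 675 genes above a signal of 1000 on both arrays having a median of 0.17, 0.04 and -0.02 under the same 3 scalings. Of 25 genes of fatty acid uptake and oxidation 2 were higher, among them the fatty acid transporter Cd36 at 1.52-fold, and 0 of 25 were higher without rescaling or after quantile normalization. None of 14 housekeeping genes reached 1.5-fold, with a median of 0.08 that turned to -0.04 after quantile normalization.

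**Figure D4:**
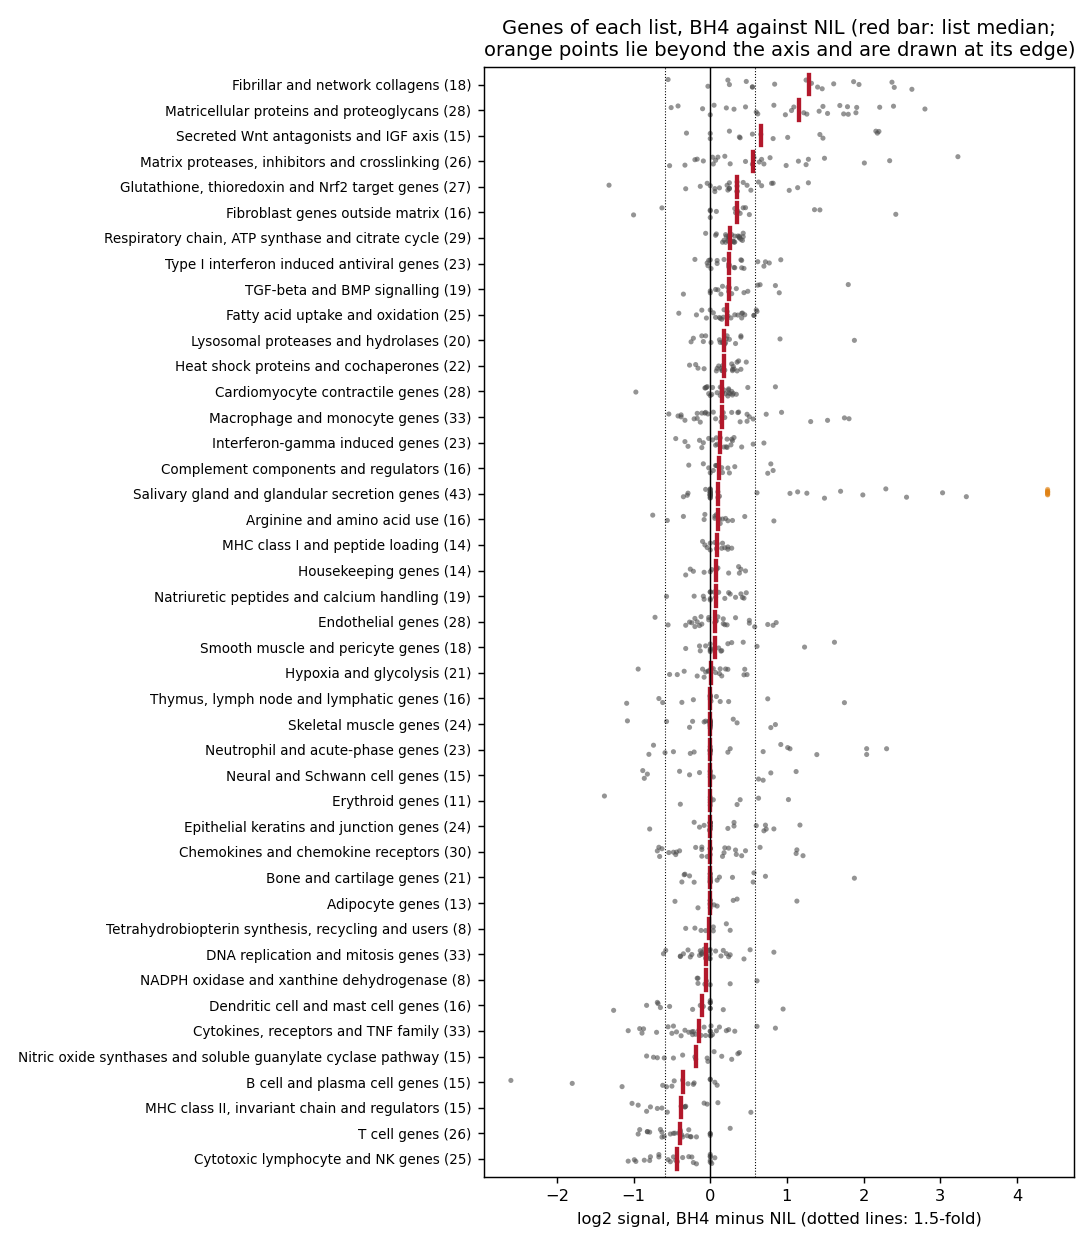
Log2 signal BH4 minus NIL of the genes (points) of each of 43 lists, ordered by the list median (red bar), with the number of measured genes in brackets and dotted lines at 1.5-fold. The collagen list leads with a median of 1.29 and the cytotoxic list is lowest at -0.43.

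The salivary genes held the largest differences of all. Of 43 salivary and glandular secretion genes measured, 19 were at least 1.5-fold higher with BH4 and 0 lower, and 17 of them met the rule of at least 2-fold above each of the other 5 arrays. That rule reads the BH4 signal itself, so their height is a description. Bpifa2, the parotid secretory protein, had a signal of 5806 with BH4, 56.2 with NIL and 40.7 or less on the other 4 arrays, which is 103-fold over NIL. Smr3a, a submaxillary gland protein, was at the floor on 5 arrays and at 3169 with BH4, at least 91.1-fold higher. Dnase1, a secreted nuclease, was at least 79.4-fold higher, Amy1, salivary amylase, at least 57.8-fold and Chia1, an acidic chitinase, 47.2-fold. Pip, prolactin-induced protein, was at least 34.2-fold higher by its brighter probe set, and its other probe set gave 40.2 with NIL and 37.8 with BH4. At the low end Klk1, a tissue kallikrein, was at least 2.80-fold, Pigr, which carries IgA across epithelium, 2.39-fold and Ltf, lactoferrin, 2.06-fold higher. Of the 17 genes 7 were at the floor on all 5 other arrays, and NIL was the second highest array for another 7, among them Wfdc18 (1230 with BH4, 252 with NIL), Dcpp3 (483 and 149) and Ltf (274 and 133).

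The promoters of the 3 genes with the largest folds are shown, as the 250 bases before the start in RefSeq (GRCm38.p6). They lie on the + strand at chr2:154008026-154008275 (Bpifa2), chr5:88002275-88002524 (Smr3a) and chr16:4036786-4037035 (Dnase1, the first of 2 starts listed). Capitals mark TATAAA or CCAAT on either strand.
Bpifa2: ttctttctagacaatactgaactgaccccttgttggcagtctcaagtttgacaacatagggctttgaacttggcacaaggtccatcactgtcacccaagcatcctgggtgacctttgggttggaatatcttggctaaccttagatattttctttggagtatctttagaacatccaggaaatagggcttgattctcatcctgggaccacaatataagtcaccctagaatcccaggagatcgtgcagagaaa
Smr3a: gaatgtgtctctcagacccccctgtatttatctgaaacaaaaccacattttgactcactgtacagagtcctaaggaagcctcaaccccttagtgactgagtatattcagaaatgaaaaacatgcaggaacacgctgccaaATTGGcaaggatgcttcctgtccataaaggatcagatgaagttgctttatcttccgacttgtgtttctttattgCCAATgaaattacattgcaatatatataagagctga
Dnase1: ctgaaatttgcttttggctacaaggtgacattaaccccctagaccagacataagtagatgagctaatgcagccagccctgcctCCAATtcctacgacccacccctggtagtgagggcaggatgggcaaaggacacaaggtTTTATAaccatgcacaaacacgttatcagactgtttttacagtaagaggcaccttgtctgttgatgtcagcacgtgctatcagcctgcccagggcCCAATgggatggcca
Bpifa2 held neither motif, Smr3a held CCAAT in 2 places, and Dnase1 held CCAAT in 2 places and TATAAA in 1. Of the 17 salivary promoters 8 (47.1%) held CCAAT and 4 (23.5%) TATAAA, where all 27025 promoters of that length held them in 34.5% and 13.0%. None of the matches shown overlaps another, and a match describes letters, not a bound factor.

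Not every salivary gene took part. Of the 26 measured salivary genes outside the rule, 17 were at the floor on both arrays, among them Dmbt1, Agr2 and 6 kallikreins of the Klk1b family, and 2 were at least 1.5-fold higher, Scgb3a1 (54.3 with NIL, 120 with BH4) and Dcpp1. Epithelial genes were higher in 6 of 24 cases and lower in 1. Krt8, a keratin of simple epithelium, was 2.25-fold higher (122 with NIL, 276 with BH4), and Epcam and Cldn7, at the floor with NIL, were at 56.5 and 62 with BH4. Another 9 genes outside the salivary list met the same rule on the BH4 array, including Ggh, Wfdc2 and Krt8, and without all 26 such genes 192 genes (1.55%) were at least 2-fold higher with BH4 and 155 (1.25%) lower. At the edge of the rule, Rrp9 and Scgb2b27 were 2.06-fold and 2.02-fold above the highest other array, and Lcn2 and Gjb2, at 1.94-fold and 1.91-fold, were outside it. No gene of the 3 matrix lists was among the 26, and the matrix median was therefore the same with and without them. The part of these salivary and epithelial genes in the other differences was not tested.

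**Figure D5:**
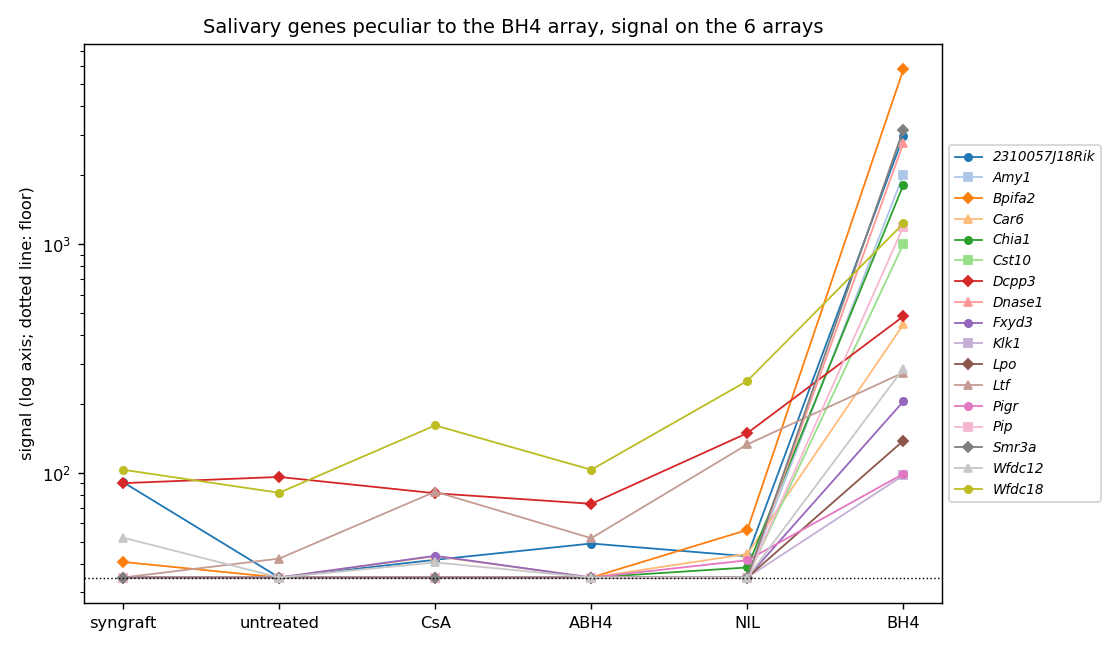
Signal (log axis, dotted line at the floor) of the 17 salivary genes peculiar to the BH4 array on the 6 arrays, with lines only joining the values of a gene. Most are at or near the floor on 5 arrays, and Bpifa2 reaches 5806 with BH4.

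On the NIL side 3 genes, Igkv6-14, Igll1 and Mapk8ip2, exceeded each other array by 2-fold or more. Another 4, Plagl1, Smyd1, Tmem144 and Zdhhc6, were as far below each other array. The signal of Smyd1 was 259 with NIL, 901 with BH4 and 563 in the untreated allograft. Beyond the immunoglobulins, the largest differences toward NIL were among dim genes. Fancc, of the Fanconi DNA repair complex, was 98 in the syngraft, 42.7 in the untreated allograft, 88.9 with CsA, 74.2 with ABH4, 187 with NIL and 36.4 with BH4, which is 5.15-fold. Trim43a was 4.16-fold (149 with NIL, 35.7 with BH4), Capn8, a calpain, 3.13-fold and Hoxa9, a homeobox factor, 2.91-fold higher with NIL. Of genes at the floor with BH4, Kel, the Kell blood group protein, was at least 3.34-fold and Map11 at least 3.43-fold higher with NIL, and Inhbb, an activin subunit, at least 4.65-fold with a probe set of opposite sign.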

How the data were processed

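Total RNA of cardiac grafts was measured on 6 oligonucleotide arrays, 1 for each group of the labels. The deposited values are signal intensities of 22690 probe sets per array, linear, with a trimmed mean of 200.0 on every array, so the authors had scaled them. The software and background correction are not given in the sources used here.

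Signals were multiplied by a factor per array that gave the 22626 non-control probe sets the same median on all 6 arrays, the mean of the deposited medians, which moved NIL by -0.05 and BH4 by 0.09 on the log2 scale. A floor of 34.8, the 30th percentile over the 6 rescaled arrays, replaced lower values, log2 was taken, and NIL was subtracted from BH4. Deposited medians were 86.1 for NIL and 78.5 for BH4, and 29.1% and 30.8% of probe sets were at the floor. The 3' to 5' ratio of Actb, a sign of RNA integrity, was 1.04 for NIL and 1.12 for BH4. A gene took its probe set of highest mean signal among those with 1 gene symbol (12393 genes from 20380 probe sets). The 691 probe sets with several genes and the 1555 with none entered the counts of probe sets only. The genes of 20351 probe sets were matched to RefSeq (GRCm38.p6), whose symbols were used. Of 1040 entries in 43 gene lists 912 were measured, and some genes stand in more than 1 list.

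No test was made, as each group has 1 array, and this number limits the precision. Features were counted at 2-fold and list members at 1.5-fold. Named genes were the 10 that differed most in either direction, if measured above the floor with BH4 and with NIL, brighter than the median signal of 83.3 in either and without an opposing probe set, the 5 largest lower bounds either way, the 2 largest members past 1.5-fold of each list, and a fixed set on the nitric oxide pathway, rejection and matrix. Other genes were named after their values were seen. The comparison, its members and the gene lists were chosen with earlier results of these data known. The procedure was tested on simulated data. Python 3.11.15 with numpy 2.4.6 and pandas 2.3.3 was used. Alternatives tried were no rescaling, quantile normalization, other floors, filters on the floor, the mean over the probe sets of a gene, and leaving out genes peculiar to the BH4 array.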

Additional observations from a re-analysis of the deposited data

How the results depend on the processing

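No alternative reversed a called difference of a named gene or list, but the direction with more calls did turn, as given below. Of 1340 recomputed values 1217 stayed close to those above. That total includes 142 and 143 values from leaving out genes peculiar to the BH4 array, most of which could not move because they do not involve those genes. The floor at the 50th percentile moved 63 values and left 91 close. The deposited arrays differed in median by -0.13 (log2, BH4 minus NIL). Without rescaling, 421 probe sets and 265 genes were at least 2-fold lower with BH4, and 38.8% of the genes beyond 2-fold were higher with BH4, against 58.4% with rescaling. The floor moved the counts more. At the 10th percentile 1350 probe sets and 636 genes were higher and 1494 and 790 lower (44.6% of genes higher), the salivary median was 1.04, and the untreated allograft lay nearer NIL for 54.4% of genes higher with BH4 and 39.7% of those higher with NIL. At the 50th percentile 185 probe sets and 114 genes were higher and 37 and 20 lower (85.1% of genes higher), the matricellular median was 0.78, that of the proteases 0.25, that of the B cell list 0.00, and the untreated allograft lay nearer NIL for 40.0% of genes higher with NIL. Among features above the floor on both arrays 152 probe sets and 95 genes were lower, and the salivary median was 1.14; above the floor on at least 1 array it was 1.84. Fewer features were counted under these filters; the cause of the other shifts was not tested. The matrix medians stayed above 0 and those of the T cell and cytotoxic lists below 0 under the other scalings and floors. Medians that changed sign under another scaling were those of the arginine, hypoxia, endothelial, housekeeping, interferon-gamma, MHC class I and macrophage lists.

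No paired analysis was possible because each group has 1 array, and for the same reason no array could be left out. Signals near the floor are the limit here: 60 of the 155 genes higher with NIL were at the floor with BH4.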
